A study of Homo sapiens with 4 samples.

Results

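The genes described here are the feedback inhibitors of MAP kinase signalling: the dual-specificity phosphatases DUSP1, DUSP4, DUSP5, DUSP6, DUSP8 and DUSP10, the Sprouty genes SPRY2 and SPRY4, and the Spred genes SPRED1 and SPRED2. They were chosen by name, 10 genes in all, and 9 of them were measured among the 12153 genes of the count table. SPRY4 was not analysed here. The cells were PLC/PRF/5, a human hepatocellular carcinoma line. The control libraries (NC, n = 2) and the libraries with lentiviral knockdown of USP22 (shUSP22, n = 2) all came from cells kept for 48 h at 1% oxygen and 5% carbon dioxide, so hypoxia is shared by both groups. USP22 is a ubiquitin protease of the SAGA coactivator complex. The comparison shows how its knockdown moved these transcripts in hypoxic cells. The labels do not say whether the 2 libraries of a group were separate cultures, and the p-values measure only the spread between these libraries, which may be technical.

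MAP kinase cascades carry signals from growth factor receptors and from stress through RAS, RAF and MEK to ERK, and through parallel kinases to JNK and p38. Dual-specificity phosphatases switch the kinases off by removing phosphate from both the threonine and the tyrosine of their activation loop. Several are themselves transcribed in response to the kinases, which closes a negative feedback loop. Sprouty and Spred proteins act further upstream, at the level of RAS and RAF.

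USP22 itself was sequenced at 46513 and 41607 counts in control and only 5438 and 7683 after knockdown, 14.6% of the control level (log2 fold change −2.77 ± 0.17 (SE)). Library totals ran from 15027209 to 17194929 counts. Counts were deposited per RefSeq mRNA accession. Each gene is represented by its accession with the most counts, and levels are CPM (counts scaled to library size after TMM normalization). A gene was said to have risen or fallen when the Benjamini-Hochberg adjusted p over all tested rows in edgeR's quasi-likelihood test was under 0.05. All 12 genes of a hepatocyte-lineage marker list were in the table, but not all were well counted. HNF4A held 1 and 5 counts in control and GPC3 held 20 and 21. The 4 markers that passed the test rose, and the 8 that did not pass had log2 fold changes of both signs. Of 13 markers of other cell types, 9 were in the table. Their summed level was 345 and 401 CPM in control and 435 and 263 CPM in knockdown libraries, and it was made up largely of LYZ. PTPRC and CD3E, which define leukocytes and T cells, were not analysed here. HBB counts were 45 and 40 in control against 0 and 1 after knockdown, and PECAM1 rose (log2 fold change 1.02). The part of these markers in the results was not tested.

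The promoters of 2 of the phosphatase genes are shown because their transcripts were lower in the knockdown and their upstream sequence holds the cAMP response element, the palindrome TGACGTCA that CREB and ATF proteins are known to bind. Each is the 250 bases before a RefSeq gene start (GRCh38.p14, minus strand, written 5′ to 3′), at chr11:1572272-1572521 for DUSP8 and chr5:172771196-172771445 for DUSP1. Capitals mark the element.
DUSP8: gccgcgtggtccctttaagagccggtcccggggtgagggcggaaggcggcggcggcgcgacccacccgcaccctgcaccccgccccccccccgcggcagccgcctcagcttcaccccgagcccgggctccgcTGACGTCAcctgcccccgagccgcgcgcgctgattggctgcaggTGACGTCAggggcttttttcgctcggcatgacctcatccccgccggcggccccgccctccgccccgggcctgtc
DUSP1: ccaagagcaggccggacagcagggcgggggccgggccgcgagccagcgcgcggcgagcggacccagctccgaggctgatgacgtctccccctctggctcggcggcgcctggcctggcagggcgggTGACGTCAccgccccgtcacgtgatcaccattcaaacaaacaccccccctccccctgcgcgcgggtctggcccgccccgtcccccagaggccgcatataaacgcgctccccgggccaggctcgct
DUSP8 held 2 copies, beginning 118 and 74 bases before the start, and DUSP1 held 1, beginning 125 bases before it. Among 35116 upstream windows of the same length, 1.65% held at least 1 copy and 0.0541% held 2 or more. The windows analysed numbered 11, for 7 of the 9 genes. DUSP5 and DUSP4, which with DUSP8 were the members that fell, had no window analysed here, so the motifs were looked for in only 1 of the 3 genes that fell. No window of DUSP6, DUSP10, SPRY2, SPRED1 or SPRED2 held TGACGTCA. DUSP1 was lower but did not pass the test, and DUSP10, also lower without passing, had no copy. The 2 genes shown were picked by both traits, so the shares among all windows are no test of a link. The AP-1 motif TGANTCA, searched on both strands, was in none of the 11 windows and in 6.57% of all windows. The hypoxia response core ACGTG, searched on both strands, occurred 2 times in the DUSP1 window, as both strands of the palindrome CACGTG, in no other window of these genes, and in 18.5% of all windows. No motif contains a full copy of another. A match describes the letters only, and no binding was measured.

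The 9 genes did not move together. DUSP5, DUSP8 and DUSP4 fell in the knockdown. DUSP1 and DUSP10 were lower, and DUSP6, SPRY2 and SPRED2 were higher, in both knockdown libraries than in both control libraries, but these 5 did not pass the test. SPRED1 overlapped between the groups. In counts, 3 of 9 genes fell, where 11.1% of the 10777 tested genes fell, and 0 of 9 rose, where 9.08% of tested genes rose. Without adjustment edgeR gave p under 0.05 for 8 of the 9, 5 lower and 3 higher, where 17.8% of tested genes were lower and 15.7% higher at that threshold. DESeq2 and limma-voom also called 3 lower and 0 higher. Over all tested transcripts DESeq2 called 1208 lower and 1072 higher, and limma-voom 1246 and 1039. The knockdown libraries lay entirely below the controls for 5 genes, against 31.4% of tested genes, and entirely above them for 3, against 29.8%. The median log2 fold change was −0.99 over the 6 phosphatases and 0.60 over the 3 Sprouty and Spred genes, beside −0.004 over all tested genes. In bulk RNA a smaller share of cells expressing a gene and less of its RNA per cell cannot be told apart.

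**Figure D1:**
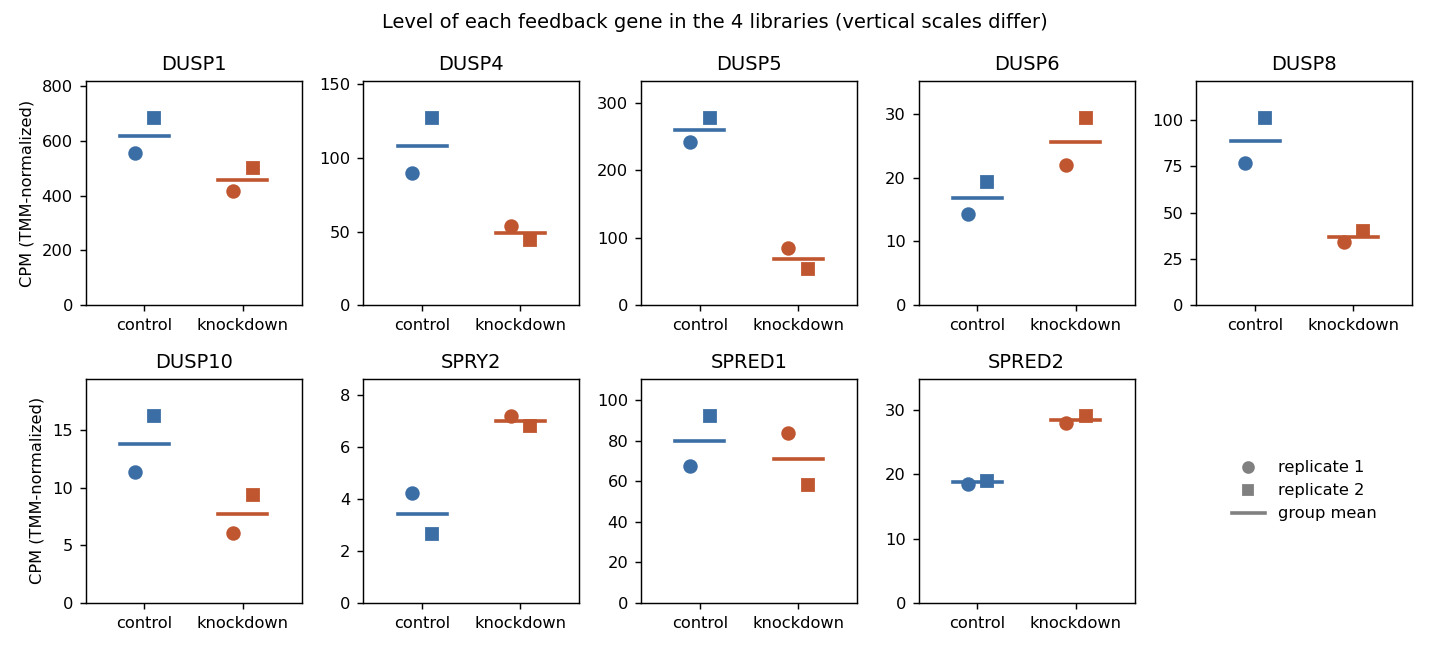
Level of each of the 9 feedback genes in each library, in TMM-normalized CPM on an axis that starts at 0 and differs between panels. Circles are replicate 1, squares replicate 2 and bars the mean of 2 libraries. DUSP4, DUSP5 and DUSP8 stand well below control in both knockdown libraries, while SPRED1 overlaps.

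Of the nuclear phosphatases, DUSP5 moved most. DUSP5 is selective for ERK, which it dephosphorylates and holds in the nucleus. It was at 241 and 277 CPM in control and at 84.4 and 53.9 CPM after knockdown. The groups were far apart, although the knockdown libraries differed from each other by a factor of 1.57. Its mean fell from 259 ± 24.9 to 69.2 ± 21.6 CPM (SD, n = 2 each), a log2 fold change of −1.91 ± 0.21 (SE) and a 3.75-fold decrease (adjusted p = 8.00e-05, edgeR). Only 4.27% of tested genes had a lower log2 fold change. Leaving out each library in turn gave −2.25 to −1.61.

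DUSP4, a nuclear phosphatase that acts on ERK and JNK, was at 89.7 and 127 CPM in control and at 54.1 and 44.2 CPM in knockdown libraries. The higher knockdown library lay below the lower control library. The mean fell from 108 ± 26.3 to 49.1 ± 7.03 CPM, a log2 fold change of −1.14 ± 0.21 (adjusted p = 0.00246, edgeR). This is the row of accession NM_001394.6. The other accession of DUSP4, NM_057158.3, held 14 and 27 control counts against 7 and 20 after knockdown, overlapped between the groups and did not pass (adjusted p = 0.616).

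DUSP1, the immediate early phosphatase that acts on p38 and JNK and also on ERK, was at 557 and 683 CPM in control and 416 and 502 CPM in knockdown libraries. The groups did not overlap, but the gap between them was smaller than the distance between the libraries within either group. The log2 fold change was −0.43 ± 0.17, a level of 74.0% of control, and DUSP1 did not pass (adjusted p = 0.0928, edgeR). Without knockdown replicate 2 the log2 fold change was −0.57, from a single knockdown library. The adjusted p of DUSP1 ran over 0.00533 to 0.993 across 12 alternatives. The authors' deposited table gives −0.42 with a q-value of 0.0237 for DUSP1.

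DUSP8 and DUSP10 are phosphatases of the stress kinases JNK and p38, and DUSP8 passed the test. DUSP8 was at 76.6 and 101 CPM in control and at 34.2 and 39.9 CPM in knockdown libraries. Both knockdown libraries were well under the lower control. The mean fell from 88.8 ± 17.2 to 37.1 ± 4.03 CPM, a log2 fold change of −1.26 ± 0.21 and a 2.39-fold decrease (adjusted p = 0.00108, edgeR). DUSP10 had fewer counts, 181 and 263 in control against 92 and 161 after knockdown, or 11.4 and 16.2 against 6.08 and 9.37 CPM. The higher knockdown library came close to the lower control. The log2 fold change of DUSP10 was −0.84 ± 0.32 and did not pass (adjusted p = 0.0856, edgeR). It ranged from −1.18 without knockdown replicate 2 to −0.54 without knockdown replicate 1. Without control replicate 1 it was −1.07, and the adjusted p of DUSP10 ran over 0.0155 to 0.414 across 12 alternatives.

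DUSP6, the cytoplasmic phosphatase specific for ERK, stood on the other side. It was at 14.3 and 19.3 CPM in control and at 21.9 and 29.3 CPM in knockdown libraries. Both knockdown libraries were the higher, with a small gap between the groups. The log2 fold change was 0.61 ± 0.26 and did not pass (adjusted p = 0.126, edgeR). Without knockdown replicate 1 the log2 fold change was 0.82, from a single knockdown library. DUSP6 has 2 RefSeq mRNA accessions, of which 1 row was in the table, and an annotated antisense gene, AC024909.2, overlaps its exons. The library kit does not mark strand, so reads of the pair cannot be told apart.

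DUSP5 and DUSP6 both act on ERK, in the nucleus and in the cytoplasm. The ratio of their counts within a library, which does not depend on library scaling, was 16.9 and 14.3 in control and 3.85 and 1.84 in knockdown libraries. The ratio was lower in both knockdown libraries, with a log2 difference of −2.54 from control. DUSP5 has a single RefSeq mRNA accession, but DUSP6 stands in the ratio as 1 row of a gene with 2. A shift between the accessions of DUSP6 would also move the ratio and was not tested. The exact two-sided permutation test gave p = 0.333, the smallest that 2 libraries against 2 can give. The ratio of DUSP5 to DUSP1 was 0.433 and 0.405 in control and 0.203 and 0.107 in knockdown libraries, also with p = 0.333 in the exact test. These pairs were chosen after their values were seen.

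The Sprouty and Spred genes did not fall with DUSP4, DUSP5 and DUSP8. SPRY2, which restrains receptor signalling to RAS and RAF, held 67 and 43 control counts against 109 and 117 after knockdown. That is 4.23 and 2.66 CPM against 7.20 and 6.81 CPM, with the knockdown libraries close together and above both controls. The log2 fold change was 1.02 ± 0.37 and did not pass (adjusted p = 0.0725, edgeR). With the rows of the gene summed SPRY2 passed narrowly (1.06, adjusted p = 0.049, over 0.0218 to 0.326 across 12 alternatives). Without control replicate 1 the log2 fold change was 1.40, from a single control library. The row holds few counts, and SPRY2 has 4 RefSeq mRNA accessions. Its second row, NM_001318536.1, held 1 and 5 control counts against 2 and 14 after knockdown and was removed by the filter on low counts.

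SPRED2, a membrane-bound inhibitor of RAS and RAF signalling, had the tightest replicates of the 9 genes in both groups. It was at 18.5 and 19.0 CPM in control and at 27.9 and 29.1 CPM in knockdown libraries, which left a clear gap. The log2 fold change was 0.60 ± 0.22 and did not pass (adjusted p = 0.0807, edgeR). The standard error comes from the fit over all transcripts, not from these 4 values alone. The other accession of SPRED2, NM_001128210.1, held 16 and 7 control counts against 8 and 3 after knockdown and was not tested. SPRED1, the paralogue that brings neurofibromin to the membrane, was at 67.6 and 92.1 CPM in control and at 83.7 and 58.1 CPM in knockdown libraries. The groups crossed, and the log2 fold change of −0.17 ± 0.22 did not pass (adjusted p = 0.647, edgeR).

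**Figure D2:**
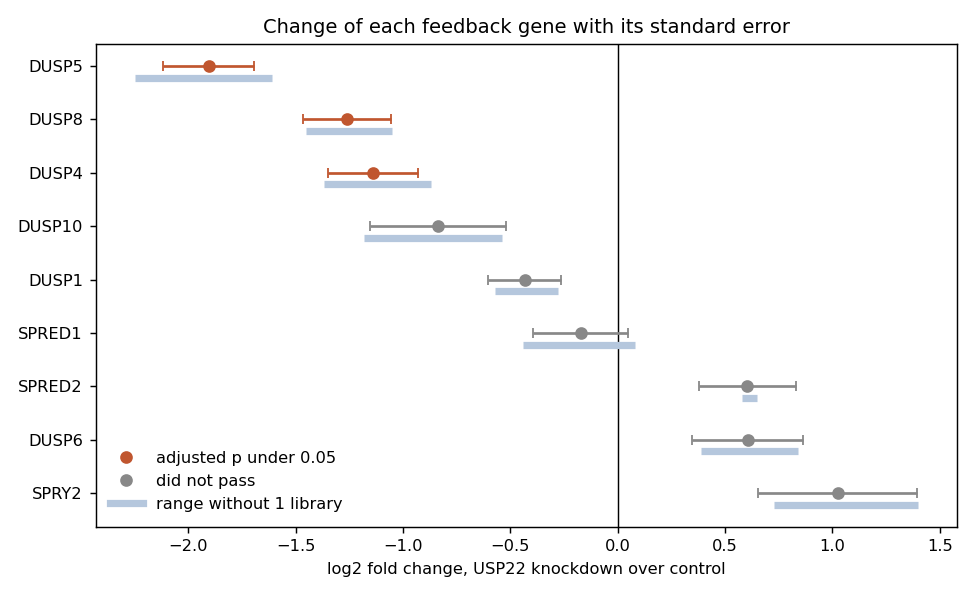
Log2 fold change of the 9 genes, knockdown over control, from edgeR. Points are estimates, whiskers 1 standard error, and pale bars the range when 1 library was left out. DUSP5, DUSP8 and DUSP4 lie entirely below 0 and passed the test. DUSP1 and DUSP10 also lie entirely below 0 but did not pass. SPRY2, DUSP6 and SPRED2 lie above 0 and did not pass.

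The authors' deposited table, read at a q-value under 0.05, holds 4 of the 9 genes as lower, where 12.8% of genes were lower, and 2 as higher, where 12.0% were higher. Its lower genes are DUSP1, DUSP4, DUSP5 and DUSP8 and its higher genes SPRY2 and SPRED2. DUSP10 had a q-value of 0.0501 and DUSP6 of 0.0588 in the authors' deposited table. The sign of the fold change was that of the edgeR fit for all 9 genes.

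Levels can be set against each other per kilobase of transcript for the members with a single RefSeq mRNA accession. In control cells DUSP1 was at 307 CPM per kilobase, DUSP5 at 101, DUSP8 at 19.8, SPRED1 at 10.3 and DUSP10 at 5.17. In knockdown cells the values were 227 for DUSP1, 27.0 for DUSP5, 8.27 for DUSP8, 9.11 for SPRED1 and 2.89 for DUSP10. Neighbours in the order did not overlap between libraries in control cells, whereas in knockdown cells DUSP8 and SPRED1 did, with 7.64 and 8.91 against 10.8 and 7.46 CPM per kilobase. DUSP4, DUSP6, SPRY2 and SPRED2 have more than 1 accession, of which a single row stands for the gene, and were left out of the order.

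Among 15 other dual-specificity phosphatases and related pseudophosphatases, 9 could be tested, and 2 of those passed, both lower, where 11.1% of all tested genes fell and 9.08% rose. These shares are the background for each list that follows, and with so few genes called in a list no list is set apart by its count. The median of the 9 log2 fold changes was −0.13. No list here was tested as a set, and for genes with several accessions, such as SOS1, AXL, LRIG1, ETV4, FOSL1, RPS6KA3 and MAPK14, only the row with the most counts was read. DUSP3, a small phosphatase without a kinase-binding domain, fell from 646 ± 106 to 365 ± 16.7 CPM (−0.82 ± 0.16). DUSP14, another small atypical phosphatase, fell from 110 ± 10.7 to 62.0 ± 7.31 CPM (−0.83 ± 0.18). Both calls were lost without control replicate 2, at adjusted p = 0.0556 for DUSP3 (over 1.74e-08 to 0.194 across 12 alternatives) and 0.0538 for DUSP14 (over 3.26e-06 to 0.219). The typical MAP kinase phosphatases tested outside the 9, DUSP7, DUSP9 and DUSP16, did not pass, and DUSP2 was not tested. DUSP7, cytoplasmic like DUSP6, was at 31.2 and 38.6 CPM in control and 26.0 and 37.5 CPM in knockdown libraries. DUSP9, of the same class, was at 63.0 and 52.9 against 41.9 and 90.1 CPM, and DUSP16, which acts on JNK, at 182 and 213 against 257 and 228 CPM. DUSP7 and DUSP9 overlapped between the groups, and DUSP16 did not.

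Among other inhibitors of the ERK pathway, 12 of 17 were tested, and 2 fell while 1 rose, against 11.1% and 9.08% of all tested genes (median of the 12 log2 fold changes −0.16). ERRFI1, a feedback inhibitor that binds the epidermal growth factor receptor family, was at 1102 and 1024 CPM in control and at 471 and 379 CPM in knockdown libraries. It fell 2.50-fold (−1.32 ± 0.16, adjusted p = 0.000141). LRIG1, which promotes turnover of the same receptors, rose from 33.8 ± 5.64 to 76.5 ± 21.9 CPM (1.18 ± 0.23), the opposite direction to ERRFI1. The ubiquitin ligase gene CBL fell (−0.63 ± 0.18, adjusted p = 0.0282). CBL no longer passed when control replicate 1, control replicate 2 or knockdown replicate 2 was left out, at adjusted p = 0.0573, 0.102 and 0.134 (over 5.98e-05 to 0.616 across 12 alternatives). SPRY1, the other Sprouty gene tested, did not pass (−0.21 ± 0.32).

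Upstream of RAS, 6 of 16 ligands and 11 of 16 receptors were tested, and 1 gene of each list passed, both lower, against 11.1% of all tested genes. HBEGF, a ligand of the epidermal growth factor receptor family, was at 38.3 and 31.0 CPM in control and at 6.01 and 6.28 CPM in knockdown libraries. It fell 5.62-fold (−2.49 ± 0.26, adjusted p = 4.50e-05). The receptor tyrosine kinase gene AXL fell from 16.7 and 18.7 CPM to 3.30 and 1.11 CPM (−3.02 ± 0.42, adjusted p = 0.000347). Its log2 fold change was −3.97 without knockdown replicate 1 and −2.41 without knockdown replicate 2. The medians were −0.51 for the ligands and 0.02 for the receptors.

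In the cascade from adaptors to ERK and its kinase targets, 19 of 27 genes were tested, with 2 lower and 1 higher, against 11.1% and 9.08% of all tested genes (median log2 fold change −0.17). SOS1, the exchange factor that loads RAS with GTP, fell from 640 ± 69.6 to 313 ± 37.3 CPM (−1.03 ± 0.16). RRAS, a RAS-related GTPase, fell from 218 ± 4.80 to 107 ± 1.89 CPM (−1.02 ± 0.16). RPS6KA3, a ribosomal S6 kinase activated by ERK, rose from 752 ± 1.47 to 1361 ± 177 CPM (0.86 ± 0.15). In the p38 and JNK arm 13 of 20 were tested, with 1 lower and 1 higher. MAPK14, which encodes p38α, fell in a row of few counts, 137 and 127 against 65 and 49 (−1.21 ± 0.36). MAPK14 did not pass without control replicate 1 or without knockdown replicate 2 (adjusted p = 0.0724 and 0.158, over 0.00392 to 0.158 across 12 alternatives). GADD45B, which binds kinases of this arm, rose (0.62 ± 0.18), a call lost without control replicate 2 (adjusted p = 0.288, over 0.000133 to 0.653).

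Transcripts often used as readouts of ERK activity, a group to which DUSP4, DUSP6 and SPRY2 are also commonly assigned, had few members that passed. Of 18 listed 14 were tested, with 1 lower, 1 higher and 12 that missed the threshold, again beside 11.1% and 9.08% (median log2 fold change 0.22). FOSL1, a subunit of AP-1, fell from 71 and 57 counts in control to 9 and 10 after knockdown (−2.75 ± 0.54, adjusted p = 0.0034). ETV4, an ETS transcription factor, rose from 148 and 113 counts in control to 264 and 257 after knockdown (0.99 ± 0.28, adjusted p = 0.0273). The ETV4 call was lost without control replicate 2 and without knockdown replicate 1 (adjusted p = 0.169 and 0.0582, over 0.00226 to 0.206 across 12 alternatives). Over all the pathway lists together, 84 of 129 genes were tested, 10 fell and 4 rose, and the median was −0.11. The number that fell was near the background of 11.1%, and the number that rose was under that of 9.08%. Both numbers depended on which library was left out, and so did the numbers called over all transcripts.

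**Figure D3:**
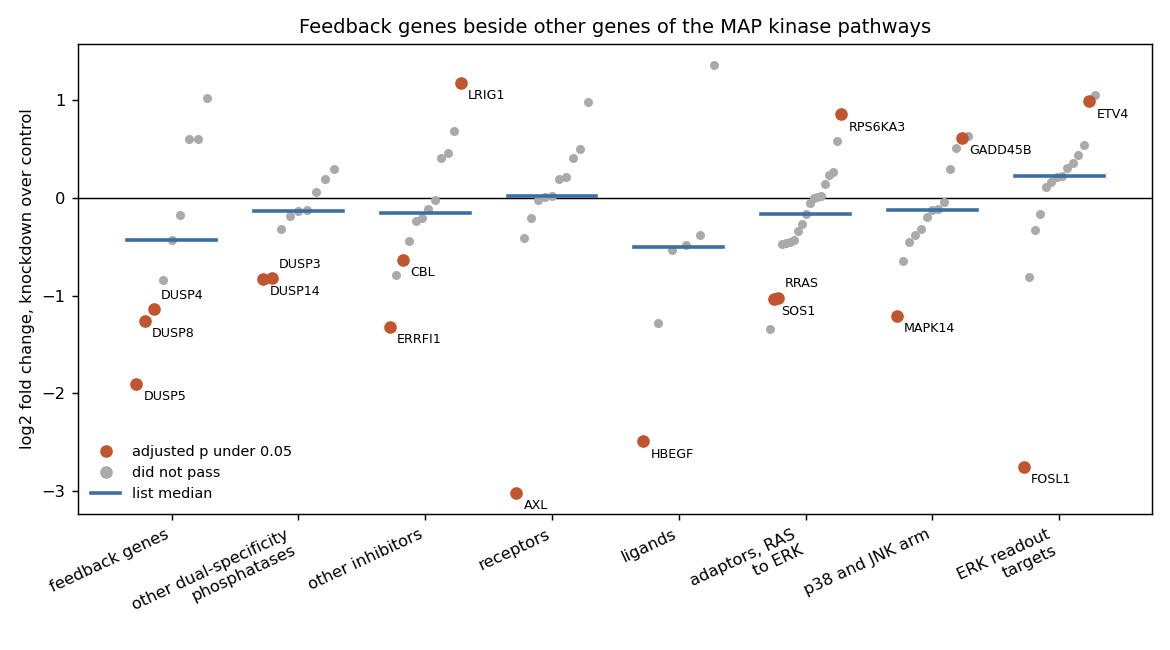
Log2 fold change of each tested gene, knockdown over control, for the 9 feedback genes and the 7 other lists of the pathways. Large points passed the test and are named, small points did not, and lines are list medians. DUSP5 at −1.91, HBEGF at −2.49, FOSL1 at −2.75 and AXL at −3.02 are the lowest points that passed.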

How the data were processed

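The authors deposited raw counts per RefSeq mRNA accession (14540 rows) for 2 control and 2 knockdown libraries of hypoxic PLC/PRF/5 cells, beside their log2 fold changes, p-values and q-values. Tools listed in the submitters' processing notes are HISAT2 2.1.0, HTSeq and bcl2fastq, with the build hg19. How reads were counted and which tool made the p-values is not stated in the labels or headers. Libraries were assigned by their titles.

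Rows were kept by filterByExpr (minimum count 10, 12337 kept, 2203 removed) and scaled by TMM. They were tested with edgeR 4.0.16 (quasi-likelihood, no covariate, Benjamini-Hochberg over all tested rows, threshold 0.05). The procedure was also run on counts simulated from its own fitted means and dispersions, which cannot show how well that model fits these libraries. The standard error is the log2 fold change divided by the square root of F. Alternatives used DESeq2 1.42.0 and limma 3.58.1. Transcript lengths came from GENCODE 29 and promoters from RefSeq (GRCh38.p14), with no coordinates taken across builds. Named were USP22, all members and, per pathway list, up to 3 passing genes in each direction with the largest change, and otherwise genes described as chosen after their values were seen. DUSP7, DUSP9, DUSP16 and SPRY1 were chosen in this way. The members, lists and motifs were chosen with earlier results of these data known.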

Additional observations from a re-analysis of the deposited data

How the results depend on the processing

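DUSP4, DUSP5 and DUSP8 kept their direction and passed under all 12 alternatives. With the replicate number as a block, 5 members fell and 3 rose (all tested but SPRED1), and other pathway genes numbered 18 lower and 9 higher. Calls rose in number throughout that fit, to 1859 transcripts lower (1257 without the block) and 1672 higher (1047). With 1 row per gene, 1749 of 10777 tested genes were lower (16.2%) and 1570 higher (14.6%). The labels do not pair the libraries, and the deviations of same-numbered libraries correlated at 0.153 over 2 pairs. The fit with the block has fewer degrees of freedom but gave far smaller adjusted p-values. For DUSP5 the adjusted p was 1.98e-34 with the block and 8.00e-05 without it (edgeR), and the reason was not tested. With rows summed per gene 1 member rose (SPRY2). Tests against a fold of 1.5 called 583 transcripts lower and 254 higher, and 6 pathway genes lower and 1 higher. Without 1 library, 3 to 5 members fell (5 without knockdown replicate 2) and 0 to 1 rose (SPRY2 without control replicate 1, DUSP6 without knockdown replicate 1). Pathway genes then numbered 7 to 17 lower and 4 to 9 higher, and transcripts 1040 to 1369 lower and 712 to 1314 higher. SPRED1 ranged from −0.44 (without knockdown replicate 1) to 0.08 and changed sign, to 0.07 without control replicate 2 and 0.08 without knockdown replicate 2. The cause was not tested, and a lone library is assumed to vary like the other group. Fits without 1 library gave smaller adjusted p-values than the full fit for DUSP5 and USP22. A pass in such a fit is therefore not stronger evidence. Low counts limit SPRY2, DUSP10, MAPK14 and FOSL1.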
